A study of Homo sapiens with 6 samples.

Results

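Collagen genes were described in human forebrain organoids exposed to amyloid-β. The table of the series lists 18056 protein-coding genes, and the 44 whose symbols have the form COL, number, A, number were taken as collagens, whatever their level. Organoids are clusters of cells grown in culture, here by a protocol for dorsal forebrain tissue. All were wild type (WT) and came from a single induced pluripotent stem cell line, DYR0100, so the libraries do not sample differences between donors. The 3 vehicle libraries came from organoids kept in vehicle, and the 3 Aβ42 libraries from organoids given 5 µM of Aβ42, the longer peptide that forms plaques in Alzheimer disease, for 6 days. The labels call the replicates independent and place them in 1 batch. They do not say how many organoids went into a library, nor the age of the organoids at treatment. The groups are compared to see how collagen transcripts differ after Aβ42.

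Collagens are secreted or membrane-bound proteins in which 3 chains wind into a triple helix. Fibrillar collagens form the tension-bearing fibres of connective tissue. Type IV collagens form the sheet of basement membranes, and type VI collagens form beaded microfilaments in the matrix beside them. The remaining types decorate fibrils (the FACIT group), span the cell membrane, lie near basement membranes (multiplexins) or build anchoring and hexagonal networks. In brain, fibrillar collagens are made mostly by cells of the meninges and vessels, and basement membranes line the pial surface and the vessels. Chains are hydroxylated and folded in the endoplasmic reticulum before they are secreted, trimmed and cross-linked.

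Libraries held 16465390 to 16742958 estimated counts, and scaling factors (TMM, which corrects for library composition) lay between 0.996 and 1.006. Markers of cells that make much collagen elsewhere were low in part. Of 10 endothelial markers 7 stayed below 0.5 TPM (a level scaled for gene length and library total) in every library, PECAM1, CDH5 and VWF included. TWIST1, FOXC1, FOXC2 and SLC22A6 stayed below 0.5 TPM among 11 fibroblast or meningeal markers in the table (PTGDS, LEPR and DCN gave most of that list's level), and ACAN, MATN1, MATN3 and COMP among 9 chondrocyte markers. Of 9 pericyte or smooth muscle markers only MYH11 did, while NOTCH3 and PDGFRB were among the highest of that list. Choroid plexus markers summed to 3349.1, 7573.0 and 3967.7 TPM in vehicle replicates 1 to 3 and to 3643.6, 6663.2 and 2839.1 TPM with Aβ42, so both libraries numbered 2 stood apart. Aβ42 replicate 2 was the Aβ42 library nearest to vehicle in 19 of the 29 collagens that could be tested (65.5%, against 60.4% of all genes). In bulk RNA, fewer cells of a type and less RNA per cell cannot be told apart.

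Several collagen genes lie in pairs on the chromosome, and the type IV genes lie head to head, so that a short stretch of DNA precedes the starts of both genes. These stretches are shown because their genes are compared chain by chain below, together with the stretches before COL6A2, COL7A1 and COL25A1, which passed the test when replicate numbers were used as a block. Sequences are from RefSeq (GRCh38.p14), whose promoter table holds 32 of the 44 genes. They run 5′ to 3′ on the strand named. Capitals mark, on either strand, the letters CCAAT of the box of that name, the letters GGGCGG of the GC box and the letters TATAAA of the TATA box; these motifs did not overlap.
COL4A1 and COL4A2, the 126 bases between the starts, chr13:110307158-110307283, + strand: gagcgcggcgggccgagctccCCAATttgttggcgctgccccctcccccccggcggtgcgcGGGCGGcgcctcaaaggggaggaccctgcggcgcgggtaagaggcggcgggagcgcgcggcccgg
COL4A5, 250 bases before the start, within the 379 bases between COL4A6 and COL4A5, chrX:108439588-108439837, + strand: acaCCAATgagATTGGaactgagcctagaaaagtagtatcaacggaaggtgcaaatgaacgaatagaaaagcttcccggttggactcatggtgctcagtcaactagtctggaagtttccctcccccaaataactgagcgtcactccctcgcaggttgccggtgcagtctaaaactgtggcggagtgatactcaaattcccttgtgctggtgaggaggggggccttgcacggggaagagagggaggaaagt
COL6A2, 250 bases before the start, chr21:46097862-46098111, + strand: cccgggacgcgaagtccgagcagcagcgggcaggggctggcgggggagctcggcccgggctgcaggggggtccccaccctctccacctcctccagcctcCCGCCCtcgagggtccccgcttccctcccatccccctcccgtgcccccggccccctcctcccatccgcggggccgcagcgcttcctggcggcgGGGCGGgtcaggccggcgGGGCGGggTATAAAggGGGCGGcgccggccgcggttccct
COL7A1, 250 bases before the start, chr3:48595330-48595579, − strand: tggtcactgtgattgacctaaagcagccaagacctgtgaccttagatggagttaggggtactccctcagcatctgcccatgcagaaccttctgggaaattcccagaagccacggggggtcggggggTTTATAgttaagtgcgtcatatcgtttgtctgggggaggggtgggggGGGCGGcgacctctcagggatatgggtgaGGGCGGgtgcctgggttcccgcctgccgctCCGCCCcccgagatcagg
COL25A1, 250 bases before the start, chr4:109302659-109302908, − strand: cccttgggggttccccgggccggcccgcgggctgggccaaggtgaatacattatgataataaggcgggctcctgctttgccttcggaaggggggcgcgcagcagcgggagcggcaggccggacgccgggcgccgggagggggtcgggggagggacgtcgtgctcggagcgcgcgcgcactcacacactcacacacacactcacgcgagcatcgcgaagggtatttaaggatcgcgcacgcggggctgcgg

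The stretches differ in composition. The one between COL4A1 and COL4A2 is 80.2% G and C with 20 CpG pairs in 126 bases, and the one before COL4A5 is 51.2% G and C with 8 CpG pairs in 250 bases. The COL6A2 stretch holds 4 GGGCGG letters and 1 TATAAA, and the COL7A1 stretch holds 3 and 1. None of the 3 motifs was found before COL25A1. Over all 35116 such 250-base stretches in the table, CCAAT was in 32.0%, GGGCGG in 42.6% and TATAAA in 10.7%. Over the 44 stretches of the collagen genes in the table (some genes have more than 1 start) the shares were 27.3%, 54.5% and 18.2%. A match is a run of letters, not a shown binding site.

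Type VI was the most abundant collagen class by summed TPM, followed in vehicle by type IV and then by fibrillar chains. The highest single genes were COL6A1, COL6A2 and COL11A1, and the chains of classical connective tissue were nearly absent. All 44 collagens together summed to 429.8 ± 16.6 TPM in vehicle and 458.3 ± 12.2 TPM with Aβ42 (mean ± SD, n = 3 each), which is 0.0418% to 0.0469% of a library's TPM. Type VI made up 34.5% of this sum in vehicle and 37.7% with Aβ42, type IV 25.2% and 20.4%, and fibrillar chains 21.0% and 20.9%. A mean of at least 10 TPM over the 6 libraries was reached by 11 collagens and one of at least 1 TPM by 22, while 17 lay below 0.5 TPM.

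**Figure D1:**
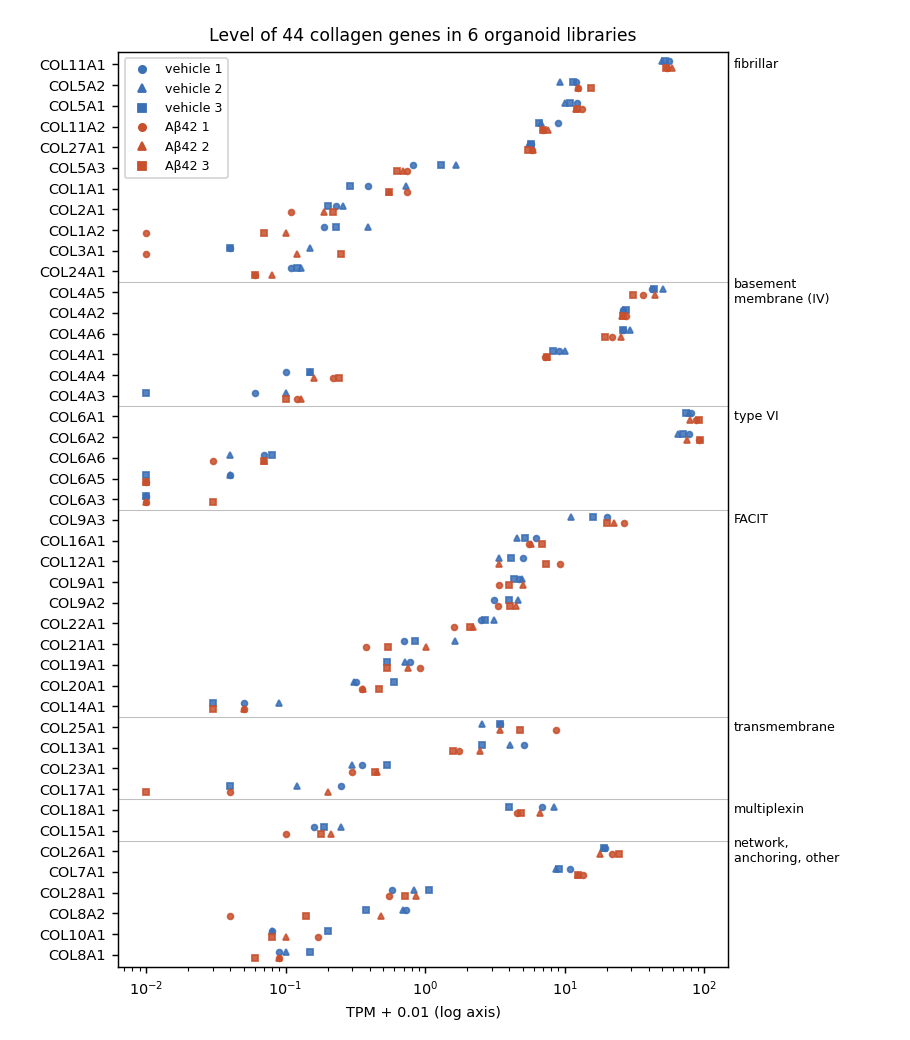
Level of each of the 44 collagen genes in TPM + 0.01 on a log axis, 1 point per library, blue for vehicle and red for Aβ42, with circles, triangles and squares for replicates 1, 2 and 3. COL6A1, COL6A2 and COL11A1 lie highest, at means of 81.7, 78.8 and 54.0 TPM, and COL6A3 lies at or near 0 in the same libraries.

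COL6A1 and COL6A2, which encode the α1 and α2 chains, headed the order at 81.7 and 78.8 TPM over the 6 libraries and did not differ beyond their spread (77.1 ± 3.45 and 71.1 ± 6.07 TPM in vehicle, n = 3). The α1 and α2 chains are known to assemble with α3 or an α3-like chain. COL6A3, the α3 gene, had 0 counts in 5 libraries and 1 count in Aβ42 replicate 3. A count of 0 allows up to 3 counts, or 0.179 to 0.182 CPM (counts scaled to the library total), so a lower level was not detectable at this depth. The α3-like genes COL6A5 and COL6A6 had at most 1 and 4 counts in a library. Near-equal levels of the first pair thus stood beside almost no transcript of the other 3 type VI genes.

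Among fibrillar chains, COL11A1 (type XI α1, which in cartilage sits inside type II fibrils) was highest, at 52.8 ± 2.74 TPM in vehicle. COL5A1 and COL5A2 (type V, which sets fibril diameter) followed at 11.04 ± 1.07 and 10.9 ± 1.46 TPM, within each other's spread. COL11A2 was at 7.38 ± 1.32 and COL27A1 at 5.67 ± 0.0872 TPM. The main chains of skin, bone and cartilage were far lower. COL1A1 was at 0.46 ± 0.23 TPM, COL1A2 at 0.26 ± 0.11, COL2A1 at 0.22 ± 0.030 and COL3A1 at 0.067 ± 0.064 TPM in vehicle.

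Type IV levels were ordered COL4A5, COL4A6, COL4A2 and COL4A1 in vehicle, at 45.3 ± 4.42, 27.2 ± 1.95, 26.6 ± 0.699 and 9.10 ± 0.918 TPM, with COL4A6 and COL4A2 within their spread. COL4A3 and COL4A4, chains of the mature kidney filter, had at most 6 and 15 counts in a library. The COL4A4 counts were 6, 9 and 8 in vehicle and 13, 10 and 15 with Aβ42, higher without overlap (adjusted p-value without a filter 0.349). Of the other groups, COL26A1 (19.2 ± 0.411 TPM), COL9A3 (15.6 ± 4.48 TPM) and COL7A1 (9.57 ± 1.17 TPM) were the highest in vehicle. COL18A1, COL16A1, COL9A1, COL12A1, COL13A1, COL9A2, COL25A1 and COL22A1 lay between 2.76 and 6.43 TPM in vehicle.

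Differences between groups were tested on counts over all 13842 genes that passed a filter on low counts. Of the 44 collagens 29 passed it, and a gene high in only 1 group can pass through that group alone. In edgeR's quasi-likelihood test without a block, 0 of the 29 had an adjusted p-value under 0.05, as did 0.0% of all genes tested. Unadjusted p-values under 0.05 were found for 13 of 29 collagens (7 higher and 6 lower with Aβ42), or 44.8%, against 23.9% of all genes. The adjusted threshold was passed by 3 collagens in DESeq2's Wald test, and by 7.12% of the 11426 genes to which it gave an adjusted p-value. In limma-voom with sample quality weights 7 collagens passed (18.4% of all genes). In edgeR without a filter on low counts 1 passed (2.07% of all genes). The 3 Aβ42 values lay wholly above or below the 3 vehicle values in 9 collagens (4 higher, 5 lower), or 31.0%, close to the 27.0% of all genes.

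When the replicate number was added as a block, 11 of 29 collagens passed (37.9%, against 14.2% of all genes). With a further correction for gene length 11 passed again, against 14.7% of all genes. That equal numbers mark pairs was assumed, and correlations between libraries do not settle it for numbers 1 and 3. Calls with the block, given below as rose or fell, depend on this assumption. COL5A1, COL5A2, COL6A1, COL6A2, COL7A1, COL9A3, COL12A1 and COL25A1 rose, and COL4A5, COL4A6 and COL13A1 fell. In each group the library numbered 2 was the lowest for COL5A1, COL5A2, COL6A2, COL7A1, COL12A1 and COL25A1. It was the highest in each group for COL4A5 and COL4A6, while COL6A1, COL9A3 and COL13A1 had neither pattern. The part of this pattern in the calls was not tested. The 8 that rose are 27.6% of those tested, against 7.12% of all genes, and the 3 that fell 10.3%, against 7.05%. Directions were thus mixed among collagens as a whole, with a median log2 fold change of 0.036 over the 29 tested, against 0.0032 over all genes. Fold changes below are log2 values of Aβ42 over vehicle from the fit without a block. Adjusted p-values are from the same fit unless the block or another setting is named with them. Where 2 are given in brackets for a gene, the second is with the block. Levels per library are TMM-scaled CPM. Without Aβ42 replicate 2, 9 collagens passed in the fit without a block, 7 of them among the 11 (the other two were COL26A1 and COL8A2), and 23.1% of all genes passed. The unadjusted count of 13 was 6 without vehicle replicate 2 or Aβ42 replicate 3 and 7 without Aβ42 replicate 1.

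**Figure D2:**
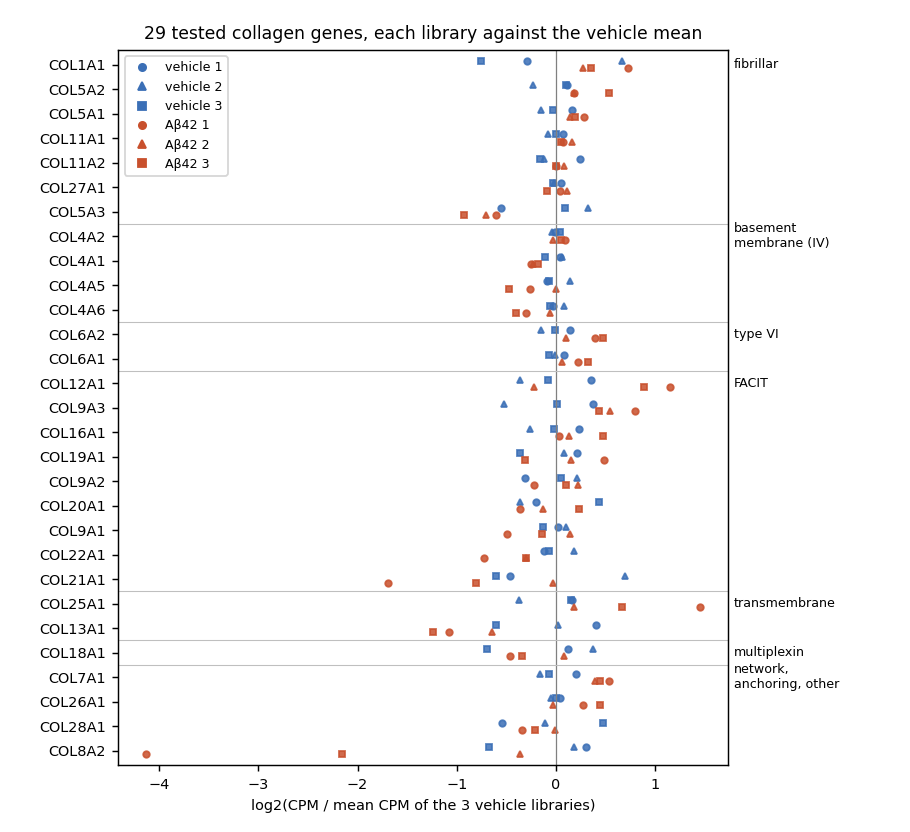
Each library's CPM of the 29 tested collagens as log2 of its ratio to the mean of the 3 vehicle libraries, blue for vehicle and red for Aβ42, with triangles for replicate 2. All red points lie to the right of all blue points in COL5A2, COL9A3, COL25A1 and COL7A1 and to the left in COL5A3, COL4A1, COL4A6, COL22A1 and COL13A1.

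COL6A1 and COL6A2, the 2 type VI genes that could be tested, were higher with Aβ42 in mean, with overlapping groups. COL6A2 was at 99.5, 81.7 and 89.9 CPM in vehicle replicates 1 to 3 and at 119.1, 97.2 and 125.2 CPM in Aβ42 replicates 1 to 3. COL6A1 was at 130.5, 122.6 and 117.8 CPM in vehicle and at 144.4, 129.0 and 154.5 CPM with Aβ42. In both genes Aβ42 replicate 2 lay below vehicle replicate 1, and the other 2 Aβ42 libraries lay above all vehicle libraries. The log2 fold changes were 0.33 ± 0.10 (SE) for COL6A2 and 0.21 ± 0.07 for COL6A1, with edgeR adjusted p-values of 0.118 and 0.117. Both genes rose with the replicate block (adjusted p-values 0.0016 and 0.0351), and both passed without Aβ42 replicate 2. The genes lie near each other on chromosome 21, COL6A1 at 45981770 to 46005048 and COL6A2 at 46098112 to 46132848. The TPM ratio of COL6A1 to COL6A2 was 1.04, 1.19 and 1.04 in vehicle, against 0.961, 1.06 and 0.981 with Aβ42, and the groups overlapped.

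Type IV chains of the COL4A5 and COL4A6 genes were lower with Aβ42 in mean, and the ratio between them overlapped between groups. These chains form the α5-α6 network found in basement membranes of skin and smooth muscle. COL4A6 was at 65.7, 71.4 and 64.6 CPM in vehicle and at 54.7, 64.5 and 50.7 CPM with Aβ42. Its groups did not overlap, although Aβ42 replicate 2 lay only just below vehicle replicate 3. COL4A5 was at 106.3, 124.9 and 107.6 CPM in vehicle and at 94.4, 112.9 and 81.3 CPM with Aβ42, so that Aβ42 replicate 2 lay above 2 vehicle libraries. The log2 fold changes were -0.25 ± 0.08 and -0.23 ± 0.12, with edgeR adjusted p-values of 0.128 and 0.286. Both genes fell with the replicate block, with adjusted p-values of 0.0124 and 0.0136. For COL4A5 the log2 fold change without a block ran from -0.12 when Aβ42 replicate 3 was left out to -0.36 when Aβ42 replicate 2 was, and was -0.15 without vehicle replicate 2. The TPM ratio of COL4A5 to COL4A6 was 1.62, 1.71 and 1.66 in vehicle, against 1.68, 1.74 and 1.59 with Aβ42. In both genes the library numbered 2 was the highest of each group, as it was for the choroid plexus markers, and the part of those cells in the result was not tested.

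COL4A1 and COL4A2 encode the α1 and α2 chains of nearly all basement membranes and share the 126 bases shown between their starts. COL4A1 was lower with Aβ42 in value, while COL4A2 showed no clear direction. COL4A1 was at 23.5, 23.8 and 21.0 CPM in vehicle and at 19.1, 19.4 and 20.03 CPM with Aβ42, so its groups did not overlap. COL4A2 was at 67.0, 65.5 and 69.3 CPM in vehicle and at 71.6, 65.8 and 69.6 CPM with Aβ42, and the groups overlapped. The log2 fold changes were -0.22 ± 0.08 for COL4A1 and 0.04 ± 0.05 for COL4A2, with edgeR adjusted p-values of 0.138 and 0.712. Neither passed with the block (0.0898 and 0.72). On the log2(TPM + 1) scale the COL4A2 value was -0.0069, where the median of all genes was -0.040. The TPM ratio of COL4A1 to COL4A2 was 0.345, 0.384 and 0.301 in vehicle, against 0.263, 0.291 and 0.283 with Aβ42. All 3 vehicle ratios lay above all 3 Aβ42 ratios, a difference given as values with no test.

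**Figure D3:**
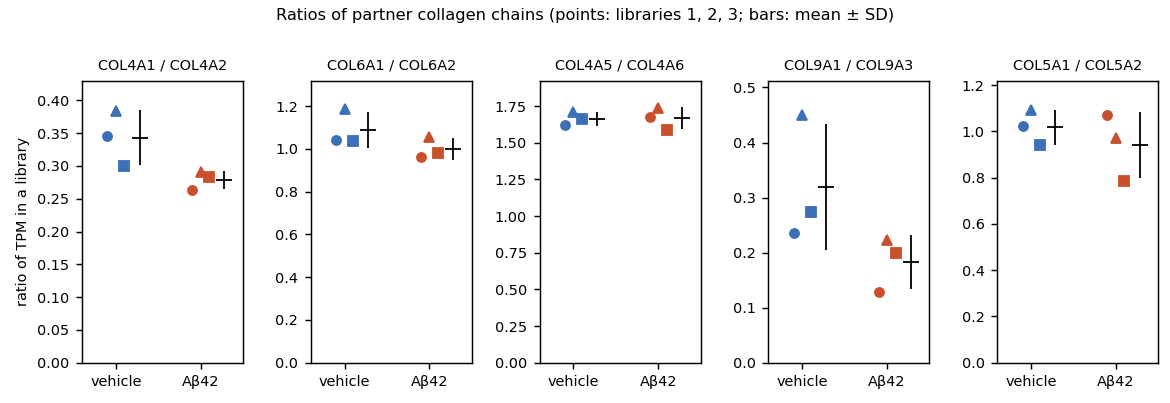
Ratio of TPM between partner chains in each library, with 1 panel per pair, circles, triangles and squares for replicates 1, 2 and 3, and black bars for the mean ± SD of the 3 libraries of a group. The COL4A1 to COL4A2 ratio is 0.343 ± 0.0417 in vehicle and 0.279 ± 0.0141 with Aβ42, while the COL4A5 to COL4A6 ratio is 1.66 ± 0.045 and 1.67 ± 0.0744. The COL9A1 to COL9A3 ratio is 0.320 ± 0.114 in vehicle and 0.183 ± 0.0489 with Aβ42.

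Of the 11 fibrillar chains 7 could be tested (median log2 fold change 0.10, 6 of 7 above 0), and COL5A1 and COL5A2 rose with the block. COL5A2 was at 30.7, 24.2 and 30.5 CPM in vehicle and at 32.4, 32.3 and 41.4 CPM with Aβ42, without overlap. COL5A1, its partner in type V trimers, was at 41.3, 33.3 and 36.2 CPM in vehicle and at 45.0, 40.9 and 42.3 CPM with Aβ42, where Aβ42 replicate 2 lay below vehicle replicate 1. The log2 fold changes were 0.31 ± 0.12 and 0.21 ± 0.08, with edgeR adjusted p-values of 0.163 for both. Both rose with the replicate block (0.0175 and 0.0463). Without vehicle replicate 2 the log2 fold change in the fit without a block was 0.14 for COL5A1, and without Aβ42 replicate 3 it was 0.18 for COL5A2. COL5A3, a further type V chain, differed in the other direction. It was at 1.32, 2.43 and 2.07 CPM in vehicle and at 1.28, 1.19 and 1.02 CPM with Aβ42, without overlap but with vehicle replicate 1 close to the Aβ42 libraries. Its log2 fold change was -0.74 ± 0.29, with an edgeR adjusted p-value of 0.158 and one of 0.0917 with the block.

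COL11A1, the most abundant fibrillar chain, was at 153.6, 137.7 and 145.9 CPM in vehicle and at 152.9, 163.3 and 151.5 CPM with Aβ42, and its groups overlapped. Its log2 fold change was 0.10 ± 0.05 (edgeR adjusted p-value 0.298). COL11A2 and COL27A1 had log2 fold changes of 0.03 and 0.02, with overlapping groups and adjusted p-values of at least 0.895. COL1A1, at 0.841, 1.64 and 0.61 CPM in vehicle and 1.71, 1.25 and 1.32 CPM with Aβ42, had one of 0.46 ± 0.36 (0.448), which was 0.96 without vehicle replicate 2 and 0.20 without vehicle replicate 3. Its partner COL1A2 was too low for the filter, at 6, 12 and 7 counts in vehicle and 0, 3 and 2 counts with Aβ42. These COL1A2 counts did not overlap, and in the fit without a filter the adjusted p-value was 0.0962. In fibroblasts the α1 and α2 chains of type I are made together. COL2A1 and COL3A1 had at most 8 and 9 counts in a library, with overlapping groups. COL24A1 had 4, 5 and 5 counts in vehicle and 2, 3 and 2 with Aβ42, without overlap (adjusted p-value without a filter 0.418).

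Among fibril-associated collagens 9 of 10 could be tested, and COL9A3 and COL12A1 rose with the block. COL9A3, a chain of type IX that coats cartilage fibrils, was at 18.1, 9.79 and 14.2 CPM in vehicle and at 24.3, 20.5 and 19.0 CPM with Aβ42. Its groups did not overlap, and Aβ42 replicate 3 lay just above vehicle replicate 1. The log2 fold change was 0.60 ± 0.21, with an edgeR adjusted p-value of 0.144 and, with the block, one of 0.004, in which fit the gene rose. Without vehicle replicate 2 the log2 fold change was 0.40. Neither of the other type IX chains passed. COL9A1 had a log2 fold change of -0.14 ± 0.17 and COL9A2 one of 0.05 ± 0.19, with adjusted p-values of 0.644 and 0.901 and overlapping groups.

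COL12A1, the type XII chain of tendon and dense connective tissue, was at 22.6, 13.8 and 16.7 CPM in vehicle and at 39.3, 15.1 and 32.7 CPM with Aβ42. Aβ42 replicates 1 and 3 were the highest of the 6, and Aβ42 replicate 2 was below 2 vehicle libraries. The log2 fold change was 0.71 ± 0.41, with an edgeR adjusted p-value of 0.352, which was 0.0178 with the block and 0.0273 without Aβ42 replicate 2. Without Aβ42 replicate 1 the log2 fold change was 0.43. COL22A1, a collagen of tissue junctions, was at 6.37, 7.84 and 6.59 CPM in vehicle and at 4.21, 5.64 and 5.64 CPM with Aβ42, without overlap. Its log2 fold change of -0.42 ± 0.16 had adjusted p-values of 0.153 without and 0.0577 with the block. COL16A1, at 8.83, 6.26 and 7.38 CPM in vehicle and 7.68, 8.20 and 10.4 CPM with Aβ42, had overlapping groups (log2 fold change 0.23 ± 0.16, edgeR adjusted p-value 0.408). COL19A1, COL20A1 and COL21A1 also overlapped, with log2 fold changes of 0.14, -0.06 and -0.68 and adjusted p-values of at least 0.391. The COL21A1 value ran from -0.15 without vehicle replicate 2 to -1.17 without Aβ42 replicate 2.

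**Figure D4:**
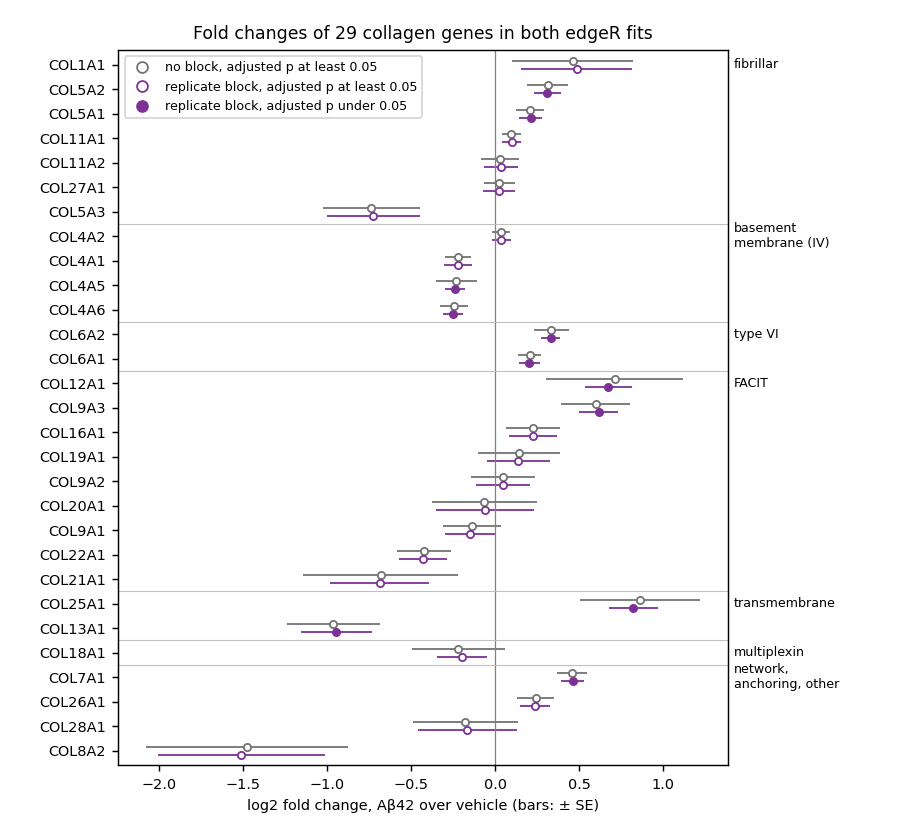
Log2 fold change of Aβ42 over vehicle ± SE for the 29 tested collagens in edgeR fits without a block (grey) and with the replicate number as a block (purple), filled where the adjusted p-value is under 0.05. All grey points are open and 11 purple points are filled, 8 to the right of 0 and 3 to the left.

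The 2 tested membrane-spanning collagens differed in opposite directions. COL25A1 encodes the precursor of CLAC, a collagen fragment known as a component of amyloid plaques in Alzheimer disease, and is expressed by neurons. It was at 10.5, 7.24 and 10.4 CPM in vehicle and at 25.7, 10.6 and 14.9 CPM with Aβ42. Aβ42 replicate 1 was far above the rest, and Aβ42 replicate 2 was just above vehicle replicate 1. In TPM the order of those 2 libraries was the other way round (3.42 and 3.45 TPM), so the groups overlapped on that scale. The log2 fold change was 0.86 ± 0.36 with an edgeR adjusted p-value of 0.214. COL25A1 rose with the replicate block (log2 fold change 0.82 ± 0.14, adjusted p-value 0.0031). Without Aβ42 replicate 1 the log2 fold change in the fit without a block was 0.45.

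COL13A1, a collagen of cell adhesion sites and of the nerve-muscle synapse, was at 5.65, 4.32 and 2.81 CPM in vehicle and at 2.01, 2.73 and 1.80 CPM with Aβ42. The groups did not overlap, with vehicle replicate 3 just above Aβ42 replicate 2. Its log2 fold change of -0.96 ± 0.27 had an edgeR adjusted p-value of 0.0905, and with the block the gene fell (0.0076). COL17A1 and COL23A1, the other 2 membrane collagens, had at most 9 counts in a library.

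COL7A1, which forms the anchoring fibrils under the epidermis, had the smallest p-value of any collagen. It was at 40.4, 31.4 and 33.5 CPM in vehicle and at 50.9, 46.1 and 47.7 CPM with Aβ42, so every Aβ42 library lay above every vehicle library. The log2 fold change was 0.46 ± 0.09, with edgeR adjusted p-values of 0.0684 without and 0.000545 with the block, where it rose. Over 18 alternative analyses its log2 fold change stayed between 0.38 and 0.57, and it passed in 6 of them. COL26A1 was at 21.2, 19.9 and 20.6 CPM in vehicle and at 24.9, 20.2 and 27.95 CPM with Aβ42, with overlapping groups. Its log2 fold change of 0.24 ± 0.11 had edgeR adjusted p-values of 0.209 without and 0.0871 with the block, and 0.0088 without Aβ42 replicate 2. Without Aβ42 replicate 3 it was 0.13 (0.59). COL8A2, a short-chain network collagen of the cornea, was at 1.32, 1.22 and 0.671 CPM in vehicle and at 0.0609, 0.831 and 0.24 CPM with Aβ42. Its Aβ42 libraries held 1, 14 and 4 counts, so its fold change (log2 -1.48 ± 0.60, edgeR adjusted p-value 0.177) rests on few counts. It was -2.76 without Aβ42 replicate 2 (0.0064) and -0.98 without Aβ42 replicate 1. COL28A1 had overlapping groups and a log2 fold change of -0.18 ± 0.31 (0.757), and COL10A1 and COL8A1 had at most 8 counts in a library.

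COL18A1, a multiplexin of basement membranes whose cleaved end is endostatin, was at 14.7, 17.5 and 8.36 CPM in vehicle and at 9.81, 14.3 and 10.7 CPM with Aβ42. The groups overlapped, and the library numbered 2 was the highest in each group, as for the choroid plexus markers, whose part in these values was not tested. The log2 fold change was -0.22 ± 0.28 with edgeR adjusted p-values of 0.657 without and 0.406 with the block, and it was 0.0089 without vehicle replicate 2. COL18A1 is the only collagen with decimal counts, which it has in all 6 libraries. COL15A1, the other multiplexin, had 3 to 8 counts per library. The library numbered 2 was the highest of both groups in 7 of the 29 collagens (24.1%, against 18.5% of all genes) and the lowest of both in 8 (27.6%, against 18.2%).

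Genes that modify and fold collagen chains were mostly higher with Aβ42 in value. Of the 19 listed, all tested, 16 had a log2 fold change above 0 (median 0.19, against 0.0032 over all genes). None passed without a block (0.0% of all genes), 7 were higher at an unadjusted p-value under 0.05 (36.8%, against 12.4% of all genes in that direction), and 4 rose with the block (21.1%, against 7.12%). P4HA2, a prolyl 4-hydroxylase subunit that acts on collagen, was at 26.4, 22.9 and 25.7 CPM in vehicle and at 35.2, 28.4 and 34.7 CPM with Aβ42, without overlap. Its estimated counts had decimals in all 6 libraries. P4HA2, CRTAP and P3H2 of the prolyl 3-hydroxylase system, and P4HB, the shared subunit of prolyl 4-hydroxylase, had log2 fold changes of 0.39, 0.24, 0.53 and 0.28. Their edgeR adjusted p-values were 0.0734, 0.0744, 0.0779 and 0.108 without and 0.0023, 0.0116, 0.0197 and 0.0032 with the block. P4HA1 did not overlap between groups (96.8, 42.3 and 74.7 CPM in vehicle, 134.1, 104.0 and 118.5 CPM with Aβ42) and did not pass in either fit (0.256 and 0.146). SERPINH1, the collagen chaperone HSP47, had a log2 fold change of 0.12 ± 0.08 (0.376). Over all 67 tested pathway genes, 12 were higher and 5 lower at an unadjusted p-value under 0.05 (25.4%, close to the 23.9% of all genes). Tested on log2(TPM + 1), the split was 9 and 9. On that scale the median of all genes was -0.040, against 0.0032 in the fit without a block.

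**Figure D5:**
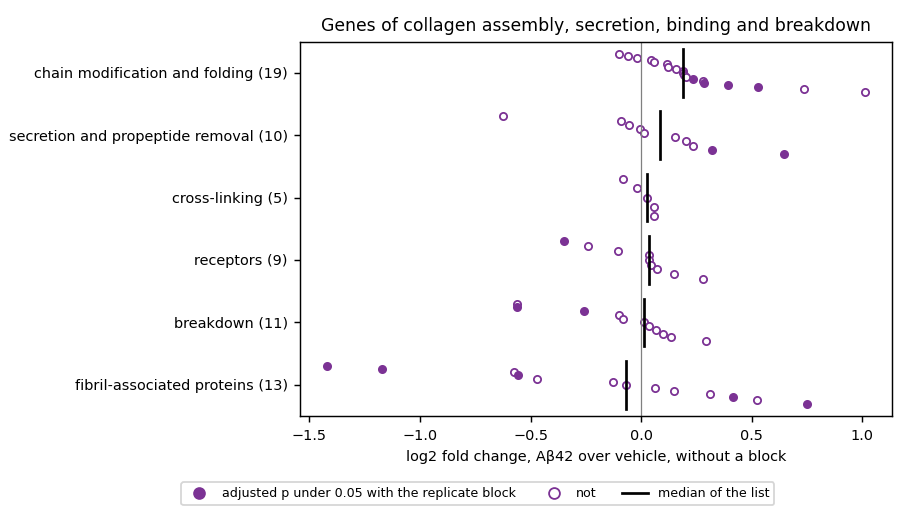
Log2 fold change of Aβ42 over vehicle, from the fit without a block, for 67 tested genes in 6 lists of the collagen pathway, filled where the adjusted p-value with the replicate block is under 0.05, with a black line at each list's median. The 19 genes of chain modification and folding have a median of 0.19, and the 5 cross-linking genes lie between -0.08 and 0.06.

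Secretion and cross-linking follow. Among 10 tested genes of secretion and propeptide removal, SEC24D, a coat protein of the vesicles that carry procollagen, was at 23.5, 23.7 and 23.6 CPM in vehicle and 30.1, 26.9 and 31.5 CPM with Aβ42. Its log2 fold change was 0.32 ± 0.08, with edgeR adjusted p-values of 0.0734 without and 0.0114 with the block. ADAMTS2, which trims the amino end of fibrillar procollagens, had one of 0.65 ± 0.26 (0.171 and 0.0137), which was 0.31 without Aβ42 replicate 1. These 2 of 10 rose with the block, against 7.12% of all genes, and 0 fell. Of the 5 tested cross-linking genes 0 passed in either edgeR fit and 0 had an unadjusted p-value under 0.05. PXDN, the peroxidase that cross-links type IV collagen, was at 182.7, 185.9 and 186.1 CPM in vehicle and at 173.0, 178.7 and 172.2 CPM with Aβ42, lower without overlap. The log2 fold change of PXDN was -0.08 ± 0.04, with edgeR adjusted p-values of 0.271 without and 0.286 with the block. LOX, the lysyl oxidase, had one of 0.06 ± 0.19 (0.878).

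Of 9 tested collagen receptor genes 1 passed with the block (11.1%, below the 14.2% of all genes). ITGA2, the α2 integrin subunit that binds fibrillar collagen, fell in that fit from 38.1, 39.8 and 42.1 CPM in vehicle to 26.6, 37.5 and 29.9 CPM with Aβ42, without overlap (log2 fold change -0.35 ± 0.11, edgeR adjusted p-values 0.116 without and 0.0116 with the block). MRC2 was at 85.4, 82.1 and 84.0 CPM in vehicle and at 87.3, 93.6 and 97.6 CPM with Aβ42, higher without overlap, but overlapped in TPM. Its log2 fold change was 0.15 ± 0.05, with edgeR adjusted p-values of 0.143 without and 0.0954 with the block. ADGRG1, a receptor of type III collagen in developing cortex, had a log2 fold change of 0.04 ± 0.05 (0.68). On the log2(TPM + 1) scale the ADGRG1 value was -0.0070, where the median of all genes was -0.040. The ligand gene of ADGRG1, COL3A1, had 0 to 9 counts in a library. Among 11 tested genes of collagen breakdown, MMP16 and MMP3 fell with the block (18.2% of the list, against 7.05% of all genes; adjusted p-values 0.021 and 0.0046), with log2 fold changes of -0.26 ± 0.07 and -0.56 ± 0.21 and edgeR adjusted p-values of 0.0891 and 0.166 without it.

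Proteins that associate with collagen fibrils or basement membranes differed in both directions. Of 13 tested, 2 rose and 3 fell with the block (38.5%, against 14.2% of all genes). HSPG2, the basement membrane proteoglycan perlecan, was at 22.4, 18.6 and 16.1 CPM in vehicle and 26.6, 23.6 and 26.0 CPM with Aβ42, without overlap (log2 fold change 0.42 ± 0.11, edgeR adjusted p-values 0.0837 without and 0.0059 with the block). TNXB had one of 0.75 ± 0.25 (0.148 and 0.000249). THBS1, a matrix glycoprotein, was at 12.4, 25.4 and 14.1 CPM in vehicle and at 3.23, 10.3 and 5.76 CPM with Aβ42, without overlap. FN1, fibronectin, and DCN, a proteoglycan that binds collagen fibrils, had log2 fold changes of -0.56 ± 0.20 and -1.17 ± 0.52. Their edgeR adjusted p-values were 0.158 and 0.263 without the block, and FN1, DCN and THBS1 fell with it. Without vehicle replicate 2 the DCN value was -0.65.

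DCN is also a marker of fibroblasts and meninges. It was at 27.2, 58.6 and 23.4 CPM in vehicle and 12.1, 24.2 and 12.1 CPM with Aβ42, and was highest in the library numbered 2 of each group. The 11 fibroblast or meningeal markers in the table, DCN included, summed to 56.7 to 117.5 TPM in vehicle and to 52.9 to 69.5 TPM with Aβ42. These markers differed in both directions. Of the 6 tested, 4 had a log2 fold change below 0 and 2 above. With the block DCN fell and FOXD1 rose. FOXD1 was at 0.72, 0.55 and 0.61 TPM in vehicle and at 2.17, 0.71 and 1.71 TPM with Aβ42. Pericyte or smooth muscle markers summed to 43.0 to 45.3 TPM and 45.4 to 46.0 TPM, and endothelial markers to 4.02 to 8.19 TPM and 2.90 to 5.01 TPM, with ERG at 0 in every library. Chondrocyte markers summed to 174.1 to 177.8 TPM in vehicle and 136.9 to 160.4 TPM with Aβ42, mostly SOX9, SOX5 and SOX6, which neural cells also express, with COMP at 0. Radial glia markers summed to 7784 to 8116 TPM in vehicle and 8038 to 8382 TPM with Aβ42, with most of the level from FABP7 and VIM. Of these 9 markers, 6 had a log2 fold change above 0. NES, HOPX and SLC1A3 fell with the block (33.3%, against 7.05% of all genes) and 0 rose. Neuron markers summed to 4756 to 4999 TPM in vehicle and 4410 to 4641 TPM with Aβ42. The part of these cell types in the collagen values was not tested.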

How the data were processed

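For each library the authors' deposited table gives a column headed as read counts and one of TPM. Only 86.9% to 87.5% of the former were whole numbers, so these deposited values were treated as estimated counts and rounded. TPM was computed by the authors and used as deposited, with a program not given in the sources used here. STAR 2.7.11b, featureCounts 2.0.6 and the build GRCh38 are listed in the submitters' processing notes, with no role or order. Libraries were stranded per the labels' protocols, but the annotation and the strand setting of the counting are not given in the sources used here, so reads shared by overlapping or antisense genes cannot be told apart.

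Genes were kept with filterByExpr (13842 genes), scaled by TMM and compared with edgeR 4.0.16's quasi-likelihood test (robust, two-sided, R 4.3.3), with Benjamini-Hochberg adjustment over all genes tested and a threshold of 0.05. SE was derived from the log2 fold change and the F statistic. Simulated counts were used to test the fit. Alternatives used DESeq2 1.42.0, limma 3.58.1, other scalings, filters and pseudocounts, a correction for gene length (from count over TPM) and left-out libraries. No label ties equal replicate numbers to 1 culture. Deviations from group means correlated, over 12186 well-counted genes, at 0.181, 0.389 and 0.129 between vehicle and Aβ42 libraries numbered 1, 2 and 3. As every one exceeds 0.1, libraries of equal number were treated as pairs, on the data alone. Libraries of different numbers gave -0.302 to 0.177. Of these, vehicle 1 with Aβ42 3 (0.1545) and vehicle 3 with Aβ42 1 (0.177) also exceeded 0.1, and both lay above 0.129. The rule therefore sets apart the libraries numbered 2 but cannot tell which of the libraries numbered 1 and 3 belong together. P-values without a block measure the spread between these libraries, and those with it the spread left within the assumed pairs. Values after ± are SD between libraries or SE from the fit. At 16465390 to 16742958 counts, floors cover counting error only.

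Collagens were selected by symbol, and collagens and lists were chosen with earlier results of these data known. Values per library are given for the 2 collagens of each class with the highest mean TPM, those without overlap, with an unadjusted p-value under 0.05 or passing with the block, and partner chains. In pathway lists up to 4 genes with the smallest p-values are named; P4HA1, SERPINH1, ADGRG1 and DCN fall outside this rule and were chosen after their values were seen. Sequences and positions are from RefSeq.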

Additional observations from a re-analysis of the deposited data

How the results depend on the processing

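Of the 29 tested collagens 0 passed the adjusted threshold without a block. Adding the replicate block gave 11 (and 11 again when combined with the correction for gene length), DESeq2 gave 3, limma-voom with sample quality weights 7, no filter on low counts 1 (COL7A1), and leaving out 1 library 0 to 9, with calls only without Aβ42 replicate 2. The unadjusted count, 13, ran from 6 to 16 with 1 library left out. The 9 collagens without overlap became 9 to 19 (15 without vehicle replicate 1, 19 without Aβ42 replicate 2). Leaving out a library can only keep or raise a count of genes without overlap. The share of all genes was not computed with a library left out, so the rise says nothing about collagens. Of the 67 tested pathway genes 0 passed without a block, against 14 with the replicate block (20.9%, against 14.2% of all genes). With both the block and the length correction 14 passed as well. DESeq2 gave 9 (7.12% of the 11426 genes with an adjusted p-value there) and quality weights 10 (18.4% of all genes). No filter gave 1 (2.07% of all genes). Leaving out 1 library gave 0 to 15 (15 without Aβ42 replicate 2, with 23.1% of all genes). The unadjusted count of these 67 genes, 17, ran from 11 to 24. The 18 without overlap (26.9%, against 27.0% of all genes) became 20 to 35, a count that again could only stay or rise. Why the tools differed was not tested.

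With 1 library left out, the median log2 fold change ran from -0.0015 to 0.073 for all collagens (below 0 without Aβ42 replicate 2), from 0.0576 to 0.169 for fibrillar, from -0.284 to -0.148 for type IV, from 0.202 to 0.354 for type VI and from -0.108 to 0.104 for the other collagens. The last, -0.00828 as reported, was 0.00323 with the length correction, 0.00676 with that correction and the block, 0.00578 by limma-voom, 0.00601 and 0.00231 on TPM scales with pseudocounts of 0.1 and 1, and 0.00726 with upper-quartile scaling; the cause was not tested. Summed TPM kept its direction in every group compared (all, fibrillar, type IV, type VI, other) when 1 library was left out. Of 57 genes (the collagens tested, up to 4 per pathway list and 4 others named) 12 changed sign in some alternative, and none of these 12 passed in any. On the TPM scales COL11A2 was at -0.0328 and -0.0304 and COL4A2 at -0.00711 and -0.00686, and ADGRG1 at -0.00706 and -0.00699. The median of all genes on these scales was -0.0434 and -0.0401 with pseudocounts of 0.1 and 1. COL27A1 was at -0.00917 with quality weights, and LOXL1 was at -0.00296 with the length correction and -0.00423 with the block as well. With 1 library left out, values ran from -0.0449 to 0.169 for COL11A2, from -0.469 to 0.00892 for COL18A1, from -0.0598 to 0.326 for COL19A1, from -0.239 to 0.213 for COL20A1, from -0.022 to 0.0777 for COL27A1, from -0.388 to 0.135 for COL28A1, from -0.304 to 0.0101 for COL9A1, from -0.0881 to 0.169 for COL9A2, from -0.136 to 0.203 for LOX and from -0.0151 to 0.0874 for LOXL1.

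The 15 collagens that did not pass the filter had at most 15 counts in a library, so only large differences in them were detectable at this depth.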
